A study of Saccharomyces cerevisiae with 36 samples.

Results

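The 53 nuclear genes of Saccharomyces cerevisiae named MRP, MRPL or MRPS encode proteins of the mitochondrial ribosome, and they were followed here across 6 natural isolates of this budding yeast and 3 growth media. They were taken by systematic name from a table of 6717 features in 36 RNA sequencing libraries, and all 53 were found. The isolates differ in how well they tolerate lignocellulosic hydrolysate, the sugar liquor made from plant biomass. By the labels Y7568, YPS128 and UWO.S05.22-7 are resistant, NCYC3290 has medium resistance, and NCYC361 and K11 are sensitive. Each isolate was grown in SynH, a synthetic hydrolysate that contains toxins, in SynH -HTs, the same hydrolysate with the toxins left out, and in YPD, a rich laboratory medium. No engineered allele is named for any isolate. Every strain and medium had 2 biological replicates collected on different days, so that each medium had 12 libraries and each strain 6, from cells in log phase (OD600 of 0.5) after at least 3 generations. Each isolate stands for its own genome, and a class of resistance is 3 or 2 isolates.

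The mitochondrial ribosome translates the few messages of the mitochondrial genome, which in yeast encode mainly core subunits of the respiratory chain and of the ATP synthase. Its proteins are nearly all encoded in the nucleus, made in the cytosol and imported. Some descend from the ribosome of the bacterial ancestor of mitochondria, and others have no bacterial counterpart. In yeast the messages of these genes are classic targets of Puf3, a Pumilio-family protein that binds a short sequence in their 3′ ends and promotes deadenylation and decay when cells ferment glucose. Genes for cytosolic ribosomal proteins and for ribosome assembly in the nucleolus are a separate set, known for their coordinated fall under stress.

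Of the 53 proteins, 16 belong to the small subunit and 37 to the large subunit, and 36 are of bacterial type while 17 are specific to mitochondria. The genes lie on 12 chromosomes and, by the RefSeq annotation of build R64, 52 have a coding sequence in 1 piece. A search of the 300 bases after each stop codon for TGTANATA on the coding strand, the core letters bound by Puf3, found a match in 53 of 53 members. The same search found one in 24 of 25 other mitochondrial ribosomal protein genes (96%), in 20.6% of 34 respiratory chain and ATP synthase genes, in 11.4% of 44 ribosome biogenesis genes, in 8.7% of 138 cytosolic ribosomal protein genes and in 16.2% of 6008 coding genes in all. A match is a description of letters and not evidence of binding in these cells. The sites below, from the R64 genome sequence in RefSeq, are shown because they belong to members on which the results turn, with the 8 matching bases in capitals. They are from MRP1 at IV:1170186-1170209 on the plus strand, MRPL6 at VIII:392538-392561 on the minus strand, MRP4 at VIII:100432-100455 on the plus strand, MRPS12 at XIV:694272-694295 on the minus strand, MRPL15 at XII:760294-760317 on the plus strand and MRP20 at IV:1278502-1278525 on the plus strand.
MRP1: gtagtctcTGTAAATAtataaagt
MRPL6: gaatacctTGTAAATAtcctatga
MRP4: cctaaactTGTACATAtgcccata
MRPS12: caacctttTGTAAATAgcaatgac
MRPL15: aatttatcTGTAAATAgtgatcga
MRP20: ctcacactTGTATATAcggagcaa

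The members held 67 such sites, with more than 1 in 13 genes. They lay 8 to 266 bases after the stop codon, with a median of 56 bases, against a median of 73 bases for 1005 sites in other coding genes. Within 150 bases of the stop codon lay 94% of the members' sites and 76.4% of the other sites. The free letter of the motif was A at 31 of the members' sites, T at 20, C at 14 and G at 2, whereas T was the most frequent in the other genes, at 507 sites. A C stood 2 bases before the match, as in MRPL6, MRP4 and MRP20 of those printed, at 62.7% of the members' sites and at 24.2% of the other sites. At least 1 site with that C was found in 42 members (79.2%) and in 4.01% of 5955 other coding genes.

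The deposited values were log2 RPKM, which take both gene length and library total into account, so levels can be compared between genes. Libraries held 2203991 to 32832553 reads in genes, and the deepest, YPS128 in SynH replicate 2, was well above the next at 8043386 reads. The members took 2330 to 81634 of these reads per library, 0.0561 to 0.355% of the total, and the fewest reads of any member in a library was 4, for MRPL25. All 53 members passed the filter of a mean of at least 1 RPKM, which kept 5927 features for testing. RNA was taken from whole cultures, in which fewer cells with a transcript and less of it per cell cannot be told apart.

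The members were transcripts of middle abundance. Their median level over all libraries was 29.0 RPKM, against 15.2 RPKM for all tested features, at the 67.1 percentile. Levels spread 9.24-fold, between 71.4 RPKM for MRPS12 and 7.72 RPKM for MRPL24. Small and large subunit genes had medians of 30.9 and 28.2 RPKM, and bacterial-type and mitochondria-specific genes had medians of 31.6 and 24.0 RPKM. After MRPS12 (YNR036C), the uS12 protein of the decoding centre, the highest levels were those of MRPL23 at 63.0 RPKM, MRPS9 at 62.8 RPKM, MRPL3 at 60.5 RPKM and MRP1 at 56.9 RPKM. Above MRPL24 at the low end stood MRPS17 at 9.78 RPKM, MRP20 at 11.5 RPKM, MRPL40 at 11.97 RPKM and MRPL27 at 12.5 RPKM.

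Strains differed in the level of nearly all members. The mean log2 RPKM of the 53 genes was 5.14 ± 0.352 in Y7568 (SD, n = 6 libraries over 3 media), 5.12 ± 0.539 in K11, 4.94 ± 0.393 in YPS128, 4.87 ± 0.298 in NCYC3290, 4.47 ± 0.393 in NCYC361 and 3.94 ± 0.629 in UWO.S05.22-7. As geometric means these are 35.4, 34.8, 30.6, 29.2, 22.2 and 15.3 RPKM in the same order. The first 4 strains lay within 1 SD of their neighbours in this order. The distance of NCYC3290 and NCYC361 was just above both their SDs, and that of NCYC361 and UWO.S05.22-7 was above the SD of NCYC361 and below that of UWO.S05.22-7. The order does not follow resistance, since the lowest and the highest strain are both resistant. In limma's F test among the 6 strains on the mean over media, 49 of 53 members passed, where 68.8% of all features did. The 4 that did not pass were MRPS16, MRPL28, MRP21 and MRPL24. The smallest adjusted p was 5.25e-10 for MRP4, the uS2 protein of the small subunit, followed by MRPS12 at 9.37e-09, MRPL6 at 9.99e-09, MRPS9 at 1.68e-08 and MRP1 at 2.08e-08. Set against the median feature of the same libraries, the members' mean stood 1.25 higher on the log2 scale in YPS128, 1.23 in Y7568, 0.803 in NCYC3290, 0.732 in K11, 0.358 in UWO.S05.22-7 and 0.311 in NCYC361, so K11 moved from the second to the fourth place with this scaling.

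Before any response to medium is read, the SynH -HTs replicates have to be described, because every member moved with them. In SynH -HTs, replicate 2 lay below replicate 1 in all 6 strains. The members' mean log2 RPKM was between 2.93 and 5.11 over strains in replicate 2, against 4.37 to 6.03 in replicate 1. The members' median difference, replicate 2 minus replicate 1, was -1.18 in Y7568, -0.69 in YPS128, -1.46 in UWO.S05.22-7, -0.72 in NCYC3290, -1.08 in NCYC361 and -0.94 in K11, with 48 to 53 of the 53 members below 0 in each strain. The median over all features was between -0.31 and -0.88, and it was closer to 0 than the members' median in each of the 6 strains. In YPD the same difference had medians between -0.18 and 0.08 over strains, and in SynH it was between -0.01 and 0.74. Across all features, the deviations of SynH -HTs libraries with the same number in different strains correlated at 0.426 to 0.717 (15 pairs of strains, median 0.565), which the fit used for the tests does not model. The plot of level by library shows the SynH -HTs pairs far apart in every strain and the YPD pairs close together.

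**Figure D1:**
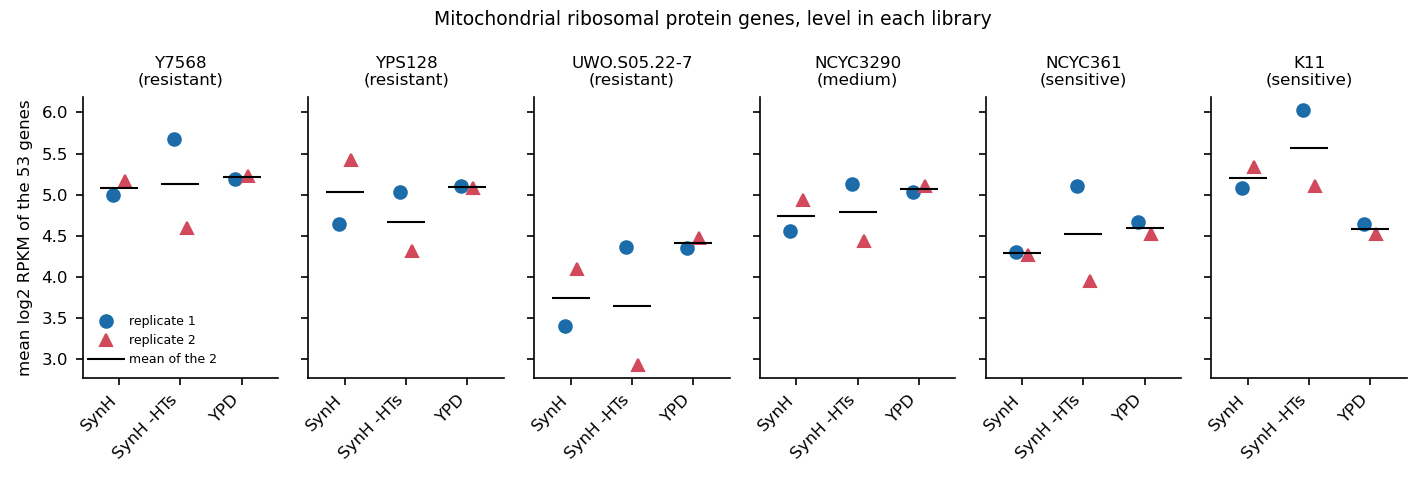
Mean log2 RPKM of the 53 genes in each of the 36 libraries, by strain and medium, with replicate 1 as circles, replicate 2 as triangles and the mean of both as a bar. In SynH -HTs replicate 2 lies below replicate 1 in all 6 strains, while the YPD replicates lie close together.

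Averaged over strains, the difference in SynH -HTs had a median of -1.03 and was below 0 for 53 of 53 members, against -0.54 for all tested features. Other mitochondrial ribosomal protein genes had a median of -0.99, ribosome biogenesis genes -0.99, cytosolic ribosomal protein genes -0.36, and respiratory chain and ATP synthase genes -0.05. The 5 regulators described further on, PUF3 and HAP2 to HAP5, had a median of -1.11, with 5 of 5 below 0. Among the members it was largest for MRPL24 at -1.77, MRPS17 at -1.68 and MRPL40 at -1.67, and smallest for MRPS12 at -0.08, MRPL19 at -0.12 and MRPL6 at -0.13. Low-level members differed most: across the 53 genes the difference and the mean log2 level had a Pearson r of 0.806, as a description of genes that share the same libraries, against 0.278 over 3102 other features in the same range of level. With coding length r was 0.18. The share of the authors' library total that fell in genes was 67.0 to 71.0% in replicate 2 and 71.1 to 73.8% in replicate 1, with 2340785 to 5180618 and 2337809 to 5553793 reads, and the part of this in the result was not tested. Non-member genes with the Puf3 letters had a median of -0.65 (884 genes) and those without a median of -0.54 (4606 genes).

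The toxin response asks what the toxins add to the hydrolysate medium and was computed as SynH minus SynH -HTs, averaged over the 6 strains. No member was higher, where 19.1% of all features were, and 4 were lower, where 10.6% of all features were, at an adjusted p under 0.05 by limma with Benjamini-Hochberg adjustment over all features. At an unadjusted p under 0.05, 5 members passed in either direction, where 37.7% of all features did. By limma voom on recovered reads 0 were higher, where 21.5% of all features were, and 5 were lower, where 11.9% were. The members' median was -0.04, against 0.09 for all features, with 21 members above 0 and 32 below. Standard errors and p-values come from the spread between libraries of the same strain and medium, with exceptions. Where strains are the unit, as for the resistance classes, they come from the spread between strains. Where means over strains are the unit, they come from the spread between replicate means of a medium.

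MRPL6, the uL6 protein of the large subunit (YHR147C, VIII:392639-393283, minus strand), had the strongest fall. Its level was 18.7 RPKM at the lowest, 30.1 at the median and 54.4 at the highest in SynH, 23.5, 33.4 and 72.5 RPKM in SynH -HTs, and 26.2, 49.9 and 79.3 RPKM in YPD. The groups overlapped because strains differed, and the median was lowest in SynH and highest in YPD. Its toxin response was -0.35 ± 0.08 on the log2 scale (SE, adjusted p = 0.00109), with 5 of 6 strains below 0 and YPS128 at 0.25. With 1 mean over strains per medium and replicate as the unit, which leaves 2 values a medium, no member passed, and MRPL6 had an adjusted p of 0.486 for the same change. Its strain values lay between -0.87 in K11 and 0.25 in YPS128. Of 57 alternative fits, 55 kept its toxin call and 2 lost it. The 2 were the fit on means over strains and the fit with strains as the unit. The fits that kept the call took their spread from libraries of the same strain and medium, as the main fit did. With strains as the unit, 3 of the named changes over all responses to medium kept their call and 12 lost it.

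MRPL19, the uL11 protein of the stalk base (YNL185C, XIV:292193-292669, minus strand), was the only member below 0 in all 6 strains. It ranged over 17.4, 39.0 and 58.5 RPKM (lowest, median, highest) in SynH and 21.8, 45.1 and 69.9 RPKM in SynH -HTs, and its change was -0.25 ± 0.08 (adjusted p = 0.0198). Its coding sequence overlaps an annotated gene, YNL184C, so its reads are uncertain where counting did not use the strand. MRPS9 (YBR146W, II:535260-536096, plus strand), the uS9 protein, whose bacterial counterpart reaches the P site, stood at 24.3, 66.3 and 99.2 RPKM in SynH and 22.1, 76.8 and 123 RPKM in SynH -HTs, a change of -0.28 ± 0.10 (adjusted p = 0.0319). MRP4 (YHL004W, VIII:99219-100403, plus strand) stood at 27.6, 50.6 and 77.9 RPKM in SynH and 22.4, 55.5 and 107 RPKM in SynH -HTs, and its change of -0.21 ± 0.08 only just passed (adjusted p = 0.0498); it overlaps YHL005C. All 4 are of bacterial type, 2 from each subunit, and none exceeded a fold of 1.27 lower. The largest positive value was that of MRP20, the uL23 protein at the exit of the peptide tunnel, at 0.41 ± 0.23, which did not pass (adjusted p = 0.209), although it was above 0 in all 6 strains, as was MRPS18.

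The direction of the toxin response for most members rested on which SynH -HTs replicate was used. A fit with 1 replicate number leaves 1 SynH -HTs library per strain, so its p-values take their spread from SynH and YPD only. Counts and adjusted p-values from 1 SynH -HTs replicate alone, here and below, are therefore not comparable with those of the full fit. The complete hydrolysate response, further below, shows counts rising from this alone. Set against replicate 2 alone, 42 members were higher, where 53.4% of all features were, and 1 was lower, where 9.18% were. Set against replicate 1 alone, 0 were higher, where 15.7% were, and 48 were lower, where 34.8% were. The members' medians were 0.50 against replicate 2 and -0.54 against replicate 1, beside 0.39 and -0.20 for all features. Of the 53 genes, 47 were above 0 against replicate 2 and below 0 against replicate 1. Without the SynH -HTs replicate 1 library of any 1 strain, the members' median lay between 0.03 and 0.08, beside 0.12 to 0.16 for all features. MRPL6 was below 0 against both, at -0.28 against replicate 2 and -0.41 against replicate 1. It was lower in each of the fits that left out any 1 library, 1 strain or 1 replicate number of a medium. These changes lay between -0.47 and -0.24. After median scaling 0 members were higher, where 16.4% of all features were, and 11 were lower, where 20.1% were, and after quantile normalization 1 was higher, where 17.3% were, and 10 were lower, where 20.5% were. MRP4, MRPS9 and MRPL19 were below 0 in all the fits that left something out but did not pass in 37, 18 and 6 of them. The members' median toxin response also changed sign with the SynH replicate, though less widely. With SynH replicate 2 alone it was 0.15, with 45 members above 0, beside 0.23 for all features. With SynH replicate 1 alone it was -0.23, with 47 members below 0, beside -0.04 for all features.

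**Figure D2:**
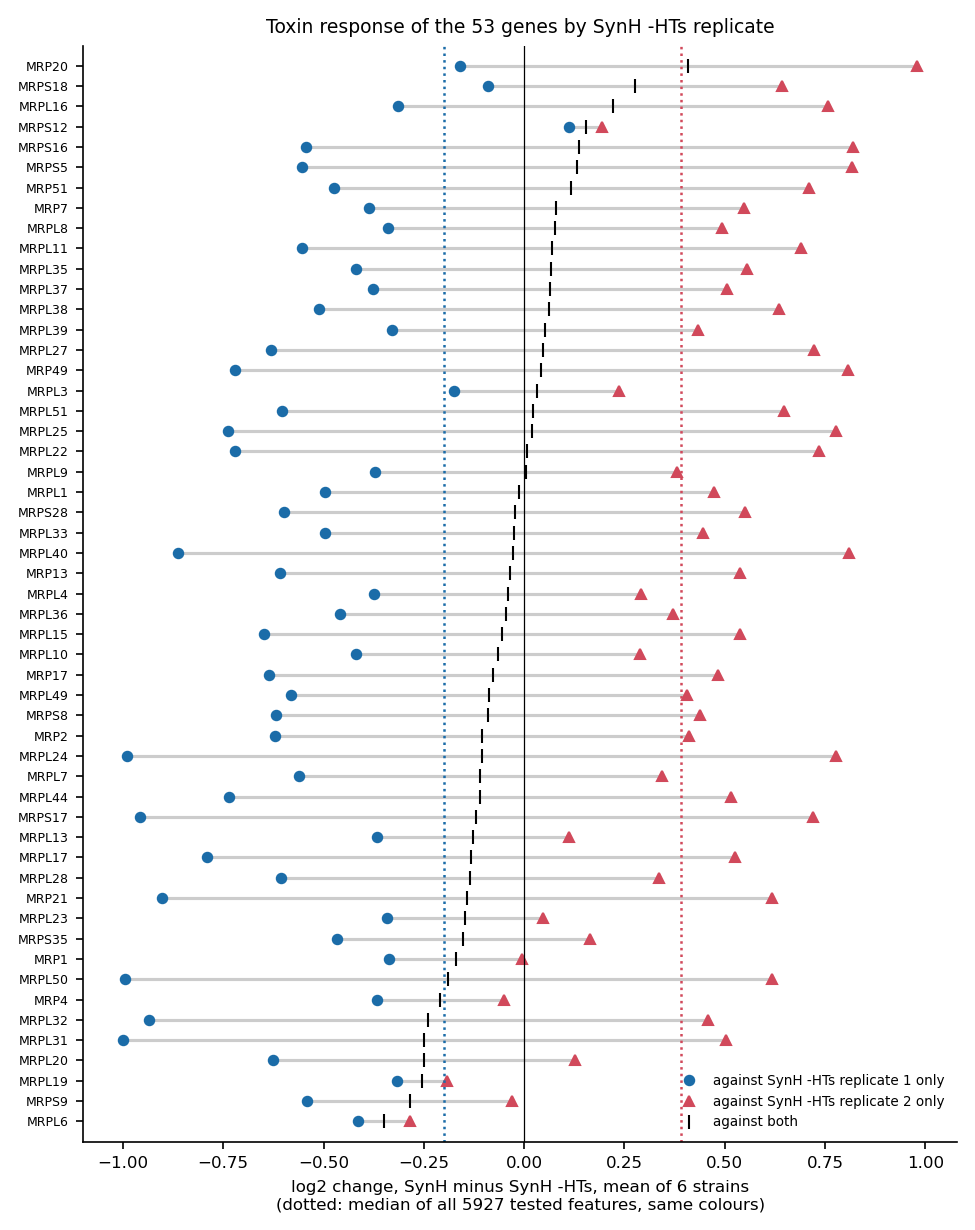
Toxin response of each of the 53 genes, as the log2 change of SynH minus SynH -HTs averaged over 6 strains, against SynH -HTs replicate 1 only (circles), replicate 2 only (triangles) and both (bars), with dotted lines at the median of all 5927 tested features. For 47 genes the circle lies below 0 and the triangle above it, while MRPL6 and MRPL19 are among the genes below 0 in both.

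Within single strains the toxin response of the members passed the threshold in 1 case. MRPL6 in K11 stood at 34.2 and 40.0 RPKM in SynH, against 72.5 and 63.5 RPKM in SynH -HTs, with no overlap, a change of -0.87 ± 0.19 (adjusted p = 0.00704; 1.48% of all features were lower in K11). Leaving out replicate 1 of K11 in either medium ended this call. No member passed in the other strains, where 6.21% of all features passed in either direction in Y7568, 6.85% in YPS128, 2.87% in UWO.S05.22-7, 5.4% in NCYC3290 and 10.4% in NCYC361. At an unadjusted p under 0.05 there was 1 in Y7568, 0 in YPS128, 0 in UWO.S05.22-7, 1 in NCYC3290 and 5 in NCYC361, where 11.9 to 20.4% of all features passed in these strains. The members' median was 0.32 in YPS128, 0.11 in UWO.S05.22-7, -0.04 in Y7568, -0.04 in NCYC3290, -0.21 in NCYC361 and -0.36 in K11. In limma's F test of the difference among strains 0 of 53 members passed, where 2.38% of all features did, and 1 had an unadjusted p under 0.05. MRPL6 came closest, at an adjusted p of 0.169.

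For the resistance classes each strain counted as 1 replicate, with 3 resistant against 2 sensitive isolates. The toxin response of 0 members differed at an adjusted p under 0.05, as for 0% of all features, and the smallest adjusted p was 0.269. MRPL31 and MRPL32, a mitochondria-specific and a bacterial-type protein of the large subunit, shared that value. MRPL31 changed by -0.01 in Y7568, 0.89 in YPS128 and 0.10 in UWO.S05.22-7, against -1.20 in NCYC361 and -0.89 in K11. MRPL32 changed by 0.23, 0.27 and 0.16 in those resistant strains, against -0.62 and -0.80 in the sensitive ones. For both genes, named for their smallest adjusted p, the classes did not overlap. This was also so for other members, such as MRPL7, MRPL44 and MRPS9, and not for others, such as MRP20. The share of all features without overlap was not counted. Across all members, 50 of 53 (94.3%) had a higher response in the resistant class, against 61.7% of all features, with a median difference of 0.45 against 0.10 for all features. At an unadjusted p under 0.05, 15 members (28.3%) and 8.13% of all features passed. The members share libraries and move together, so this count is not 50 separate observations. With SynH -HTs replicate 2 alone 47 members were above 0, and with replicate 1 alone 50 were. The mean level over media did not differ between classes for any member at an adjusted p under 0.05, or at an unadjusted one, and its median difference of -0.11, against -0.42 for all features, became 0.43 against 0.13 after median scaling.

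The base medium response asks how the hydrolysate without toxins differs from rich medium, and it was computed as SynH -HTs minus YPD. It shares the SynH -HTs libraries with the toxin response, with the opposite sign, and the values of both are therefore given side by side and not correlated. Of the 53 members, 4 were higher, where 6.78% of all features were, and 2 were lower, where 38.4% were. The members' median was -0.11, against -0.31 for all features. The 4 higher calls rested on K11. Without that strain 0 members were higher and 12 were lower, where 353 and 2729 of 5927 features were. The members' median was then -0.32, with 46 below 0, against -0.42 for all features. Without NCYC361 1 member was higher, where 390 features were, and without UWO.S05.22-7 7 were, where 464 were.

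MRPL19 was higher at 21.8, 45.1 and 69.9 RPKM (lowest, median, highest) in SynH -HTs, against 17.5, 34.3 and 52.5 RPKM in YPD, a change of 0.38 ± 0.08 (adjusted p = 0.000799). MRPL23 (YOR150W, XV:611999-612490, plus strand), the uL13 protein, stood at 31.1, 72.0 and 112 RPKM in SynH -HTs and 33.4, 55.1 and 85.5 RPKM in YPD, a change of 0.35 ± 0.10 (adjusted p = 0.00626). Libraries of the 2 media overlapped widely for both genes, and NCYC361 and K11 were the strains with the largest rises. MRPL20 (YKR085C, XI:599094-599681, minus strand), a mitochondria-specific protein, rose by 0.46 ± 0.15 (adjusted p = 0.0172), with 12.1, 37.1 and 75.6 RPKM in SynH -HTs and 14.95, 28.9 and 40.4 RPKM in YPD. MRPL10 (YNL284C, XIV:103134-104102, minus strand), the uL15 protein, rose by 0.39 ± 0.13 (adjusted p = 0.0196), with 15.1, 42.4 and 85.8 RPKM in SynH -HTs and 22.3, 29.9 and 42.1 RPKM in YPD. The 4 genes that rose belong to the large subunit. Among the 2 that fell, MRPL6 changed by -0.37 ± 0.08 (adjusted p = 0.00059), and MRP20 changed by -0.64 ± 0.23 (adjusted p = 0.0284) at 2.42, 8.86 and 25.1 RPKM in SynH -HTs and 9.42, 14.7 and 22.5 RPKM in YPD.

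This response too turned with the SynH -HTs replicate, with the same limit on counts from 1 replicate alone. With replicate 2 alone, 1 member was higher, where 7.69% of all features were, and 41 were lower, where 68.1% were. With replicate 1 alone, 32 were higher, where 13.8% were, and 1 was lower, where 19.4% were. The medians were -0.65 with replicate 2 and 0.41 with replicate 1, beside -0.59 and -0.02 for all features. It also depended on scaling, since the median feature was itself lower in SynH -HTs by 0.31. After the median of each library was set equal, 23 members were higher, where 24.6% of all features were, and 0 were lower, where 16.3% were, with MRPL6 at 0.01 (adjusted p = 0.969), so its fall in this comparison was a fall of the size of the median feature. Quantile normalization gave 22 higher, where 20.2% of all features were, and 0 lower, where 18.2% were. With 1 mean over strains per medium and replicate no member passed, and the adjusted p of MRPL6 was 0.375.

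On the deposited scale the base medium response of the members was highest in K11. There 53 of 53 members were above 0, with a median of 1.002 against 0.23 for all features, and 12 passed the threshold, where 7.44% of all features were higher. MRPL39, the bL33 protein, had the largest change among them: 136 and 105 RPKM in SynH -HTs, against 41.7 and 39.1 RPKM in YPD. The libraries of the 2 media did not overlap, and the change was 1.57. MRPL19 stood at 67.3 and 69.9 RPKM in SynH -HTs, against 35.6 and 26.4 RPKM in YPD, a change of 1.16. MRPL10 stood at 85.8 and 52.3 RPKM in SynH -HTs, against 26.7 and 24.2 RPKM in YPD, a change of 1.40. The others that passed were MRP4, MRPL23, MRPS9, MRP1, MRPS35, MRPL3, MRPL9, MRPL20 and MRPL13. Without K11 in SynH -HTs replicate 1, or without K11 in YPD replicate 2, fewer members were higher. With SynH -HTs replicate 1 alone in all strains, the median was 1.42 against 0.46 for all features. With replicate 2 alone 11 members were higher, where 6.19% of all features were, and 46 of 53 were above 0, with a median of 0.55 against 0.05 for all features. After median scaling 53 of 53 were still above 0 in K11, with a median of 0.74, and 20 were higher, where 7.04% of all features were. After quantile normalization the median was 0.87 and 29 were higher, where 10.7% were.

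The response was lowest in UWO.S05.22-7. There 51 of 53 members were below 0, with a median of -0.77 against -0.55 for all features, and 5 were lower, where 9.28% of all features were. MRPL4, the uL29 protein, had the largest change among the 5, with 14.9 and 6.41 RPKM in SynH -HTs, against 20.1 and 25.6 RPKM in YPD, and a change of -1.22. MRPL6 stood at 29.8 and 23.5 RPKM in SynH -HTs, against 50.8 and 55.4 RPKM in YPD, a change of -1.002 (adjusted p = 0.00116). The remaining 3 were MRP4, MRPL3 and MRP1. Without UWO.S05.22-7 in SynH -HTs replicate 1 there were more lower members, and without its replicate 2 or either of its YPD libraries there were fewer. After median scaling there were 0, where 2.62% of all features were lower. With SynH -HTs replicate 2 alone in all strains there were 48, where 60.2% of all features were lower, with a median of -1.39 against -1.01 for all features. With replicate 1 alone there were 2, where 3.48% were, with a median of -0.06 against -0.13.

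In NCYC361 the members were split on the deposited scale, with 25 above 0 and 28 below and a median of -0.03 against -0.89 for all features. This split changed with scaling. After median scaling 51 of 53 were above 0, with a median of 1.06 against 0.19 for all features, which is above the median of K11, and 35 were higher, where 28.3% of all features were. After quantile normalization 51 were above 0, with a median of 1.06, and 37 were higher, where 25.3% were. On the deposited scale MRPL19, MRPL23, MRPL20 and MRPS9 were higher, where 8.64% of all features were. MRPL20 stood at 50.3 and 32.4 RPKM in SynH -HTs, against 18.04 and 14.95 RPKM in YPD, a change of 1.30. MRP20 was the only 1 lower, where 44.6% of all features were, with 12.7 and 4.18 RPKM in SynH -HTs, against 17.3 and 22.5 RPKM in YPD, a change of -1.44. MRPL6 was the only member lower in YPS128, where 2.85% of all features were, at 50.8 and 33.9 RPKM in SynH -HTs and 64.9 and 79.3 RPKM in YPD. It was also the only 1 in NCYC3290, where 2.67% were, at 26.2 and 33.0 RPKM in SynH -HTs and 46.3 and 48.4 RPKM in YPD. In Y7568 no member passed, where 4.76% of all features did in either direction, with 0 at an unadjusted p under 0.05 as well.

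**Figure D3:**
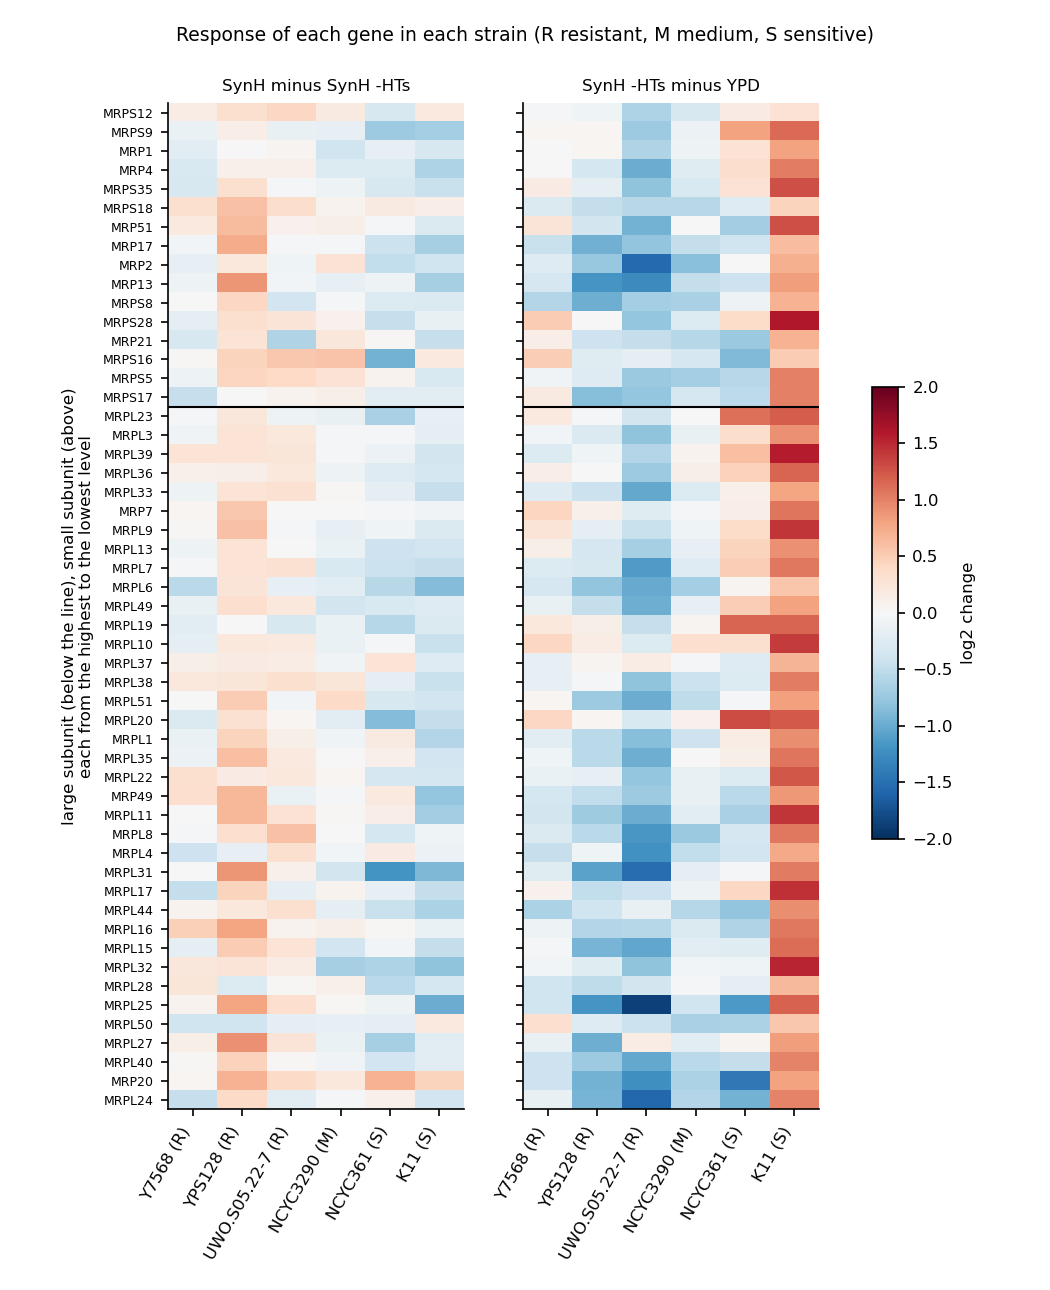
Log2 change of each of the 53 genes (rows, small subunit above the line) in each strain (columns) for SynH minus SynH -HTs and for SynH -HTs minus YPD, each from 2 against 2 libraries. The K11 column of the base medium response is above 0 in all 53 rows, and the UWO.S05.22-7 column is below 0 in 51.

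The difference among strains was tested itself. In limma's F test on the base medium response 9 of 53 members passed, where 29.6% of all features did. They were MRP4, MRPL19, MRPL6, MRPS9, MRPL23, MRPL3, MRP1, MRPS35 and MRPL13, with adjusted p-values between 9.15e-05 and 0.0276. MRP4 changed by 1.02 in K11, 0.35 in NCYC361, -0.01 in Y7568, -0.24 in NCYC3290, -0.35 in YPS128 and -0.996 in UWO.S05.22-7. MRPL19 was highest in NCYC361 at 1.16 and K11 at 1.16 and lowest in UWO.S05.22-7 at -0.47. MRPL6 lay between 0.55 in K11 and -1.002 in UWO.S05.22-7. In each of the 9 the lowest value belonged to UWO.S05.22-7. Without UWO.S05.22-7 in SynH -HTs replicate 1 the count was 31, where 40.1% of all features passed, and without NCYC361 in SynH -HTs replicate 1 it was 14, where 30.7% did. With SynH -HTs replicate 2 alone in all strains 38 members passed, where 47.5% of all features did, and with replicate 1 alone 27, where 30.2% did. After median scaling 32 passed, where 28.9% did, and after quantile normalization 29, where 32.2% did.

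The complete hydrolysate response compared SynH with YPD and used no SynH -HTs library in its means. It shares SynH with the toxin response and YPD with the base medium response. Of the members, 1 was higher, where 14.4% of all features were, and 4 were lower, where 34.2% were, with a median of -0.17 against -0.23 for all features. That median moved with the SynH replicate. With SynH replicate 2 alone it was 0.02, with 31 members above 0, against -0.11 for all features. With SynH replicate 1 alone it was -0.32, with 44 members below 0, against -0.35 for all features. MRPL6 had the largest change of the 53 genes, -0.72 ± 0.08 (adjusted p = 6.07e-08), and was below 0 in all 6 strains, between -1.16 in UWO.S05.22-7 and -0.32 in K11. It stayed lower in each of the fits that left out a library, a strain or a replicate number of a medium, with changes between -0.79 and -0.63. MRP17, the bS6 protein, was also below 0 in all 6 strains. It stood at 11.9, 31.5 and 55.0 RPKM in SynH and 22.6, 44.8 and 55.6 RPKM in YPD, a change of -0.49 ± 0.20 (adjusted p = 0.0487). MRP2, the uS14 protein, stood at 5.98, 29.8 and 50.8 RPKM in SynH and 24.6, 36.5 and 55.1 RPKM in YPD, a change of -0.55 ± 0.21 (adjusted p = 0.0318). MRP4 changed by -0.25 ± 0.08 (adjusted p = 0.0127). MRPL10 was the member that rose, by 0.33 ± 0.13 (adjusted p = 0.0439), with 21.3, 41.1 and 68.8 RPKM in SynH and 22.3, 29.9 and 42.1 RPKM in YPD. After median scaling 15 members were higher, where 26.0% of all features were, and 3 were lower, where 24.0% were, and after quantile normalization 17 were higher, where 24.6% were, and 1 was lower, where 28.6% were. Leaving out either SynH -HTs replicate, which here enters only the estimate of spread, gave 5 higher, where 17.1% (without replicate 1) and 17.0% (without replicate 2) of all features were, and 14 lower, where 44.9% were. Of the fits that left out a library, a strain or a replicate number of a medium, the calls of MRP17 and MRPL10 were lost in 29 each, that of MRP2 in 15 and that of MRP4 in 5. With 1 mean over strains per medium and replicate no member passed, and MRPL6 had an adjusted p of 0.0646.

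Side by side, the 4 members lower with the toxins had different signs in the other comparisons. In the order of toxin, base medium and complete hydrolysate response, MRPL6 had -0.35, -0.37 and -0.72. MRPL19 had -0.25, 0.38 and 0.12, and MRPS9 had -0.28, 0.20 and -0.09. MRP4 had -0.21, -0.04 and -0.25. Only MRPL6 passed in all 3 comparisons. MRPS12, the most abundant member, had 0.15, -0.10 and 0.06 and passed in none of them.

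Genes that work with the members, or that are known to move with growth, were described from lists. Of all 5927 tested features, 1131 were higher and 626 lower with the toxins. In the base medium response 402 were higher and 2276 lower. The 25 other mitochondrial ribosomal protein genes had 0 higher and 1 lower in the toxin response, with a median of -0.03, and 2 higher and 3 lower in the base medium response. Of 18 mitochondrial translation factors and ribosome assembly genes, MEF2, a factor for ribosome recycling, was the 1 that passed with the toxins, at 0.96 ± 0.25 (adjusted p = 0.00431). In the base medium response 2 of the 18 were higher and 4 lower, among them TUF1, the mitochondrial elongation factor Tu, at 0.37 ± 0.05 (adjusted p = 3.52e-06) and OXA1, the inner membrane insertase, at -0.65 ± 0.10 (adjusted p = 1.9e-05). MTG2, a GTPase of large subunit assembly, stood at -1.13 ± 0.25 (adjusted p = 0.00106). Mitochondrial aminoacyl-tRNA synthetases had 0 of 14 called with the toxins and 0 higher and 5 lower in the base medium response. The 17 activators of single mitochondrial messages had 0 called with the toxins, and 0 higher and 2 lower in the base medium response.

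PUF3 itself did not pass with the toxins, at 0.08 ± 0.12 (adjusted p = 0.692), and was lower in the base medium response, at -0.60 ± 0.12 (adjusted p = 0.000521). HAP4, the regulated subunit of the activator of respiratory genes, was higher with the toxins at 0.69 ± 0.15 (adjusted p = 0.00111) and lower in the base medium response at -0.57 ± 0.15 (adjusted p = 0.00449). These calls rest on the same SynH -HTs libraries as the members' values, in which replicate 2 lay below replicate 1 by a mean of -0.60 for HAP4 and -0.54 for PUF3. Set against replicate 2 alone the toxin response of HAP4 was 0.99 (adjusted p = 1.29e-05), and against replicate 1 alone it was 0.39 (adjusted p = 0.0312). In the base medium response HAP4 stood at -0.87 (adjusted p = 2.21e-05) with replicate 2 alone and -0.27 (adjusted p = 0.162) with replicate 1 alone. PUF3 stood there at -0.86 with replicate 2 alone and -0.33 with replicate 1 alone. Its toxin response was 0.35 against replicate 2 alone and -0.19 against replicate 1 alone. Of the other regulators, HAP3 and HAP5 also changed sign in the toxin response. They stood at 0.85 and 0.50 against replicate 2, and at -0.42 and -0.63 against replicate 1. HAP2 stood at 1.14 against replicate 2 and 0.03 against replicate 1. RPO41, the mitochondrial RNA polymerase, and MTF1, its partner factor, passed in neither, at 0.20 ± 0.14 and 0.13 ± 0.15 with the toxins and -0.27 ± 0.14 and -0.22 ± 0.15 in the base medium response. The non-member genes with the Puf3 letters had a median toxin response of 0.10, as did those without.

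The respiratory chain and ATP synthase genes, whose mitochondrial partners the mitochondrial ribosome makes, had 30 of 34 higher and 1 lower with the toxins, with a median of 0.53. Ribosome biogenesis genes had 0 of 44 higher and 32 lower, with a median of -0.69, and cytosolic ribosomal protein genes had 0 of 138 higher and 73 lower, with a median of -0.27. Of all 5927 tested features, 1131 were higher and 626 lower. The members' median of -0.04 lay between these lists, with single members between -0.35 and 0.41. That place rested on both SynH -HTs replicates, since the members' median was 0.50 against replicate 2 alone and -0.54 against replicate 1 alone. Replicate 2 minus replicate 1 had a median of -0.05 in the respiratory genes, -0.99 in ribosome biogenesis genes and -0.36 in cytosolic ribosomal protein genes. The lists were chosen with earlier results known and their medians are descriptions.

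**Figure D4:**
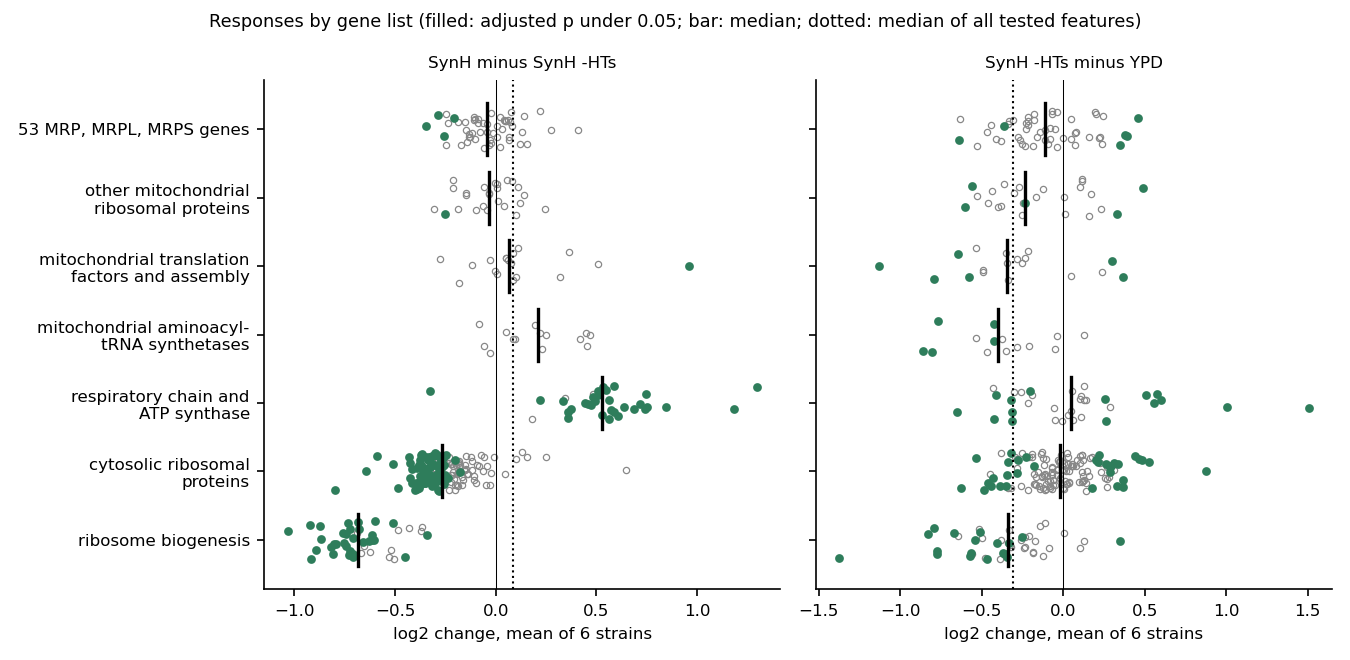
Log2 change of each gene of 7 lists, as the mean of 6 strains, for SynH minus SynH -HTs and SynH -HTs minus YPD, with filled points at an adjusted p under 0.05, a bar at the list's median and a dotted line at the median of all tested features. With the toxins and both SynH -HTs replicates, the 53 genes lie around -0.04, between the respiratory genes around 0.53 and the ribosome biogenesis genes around -0.69.

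Promoter windows were searched because MRPL6 differed from most members in its values. The window from 250 bases before to 50 bases after the start codon was searched on both strands for GCGATGAG, the core of the PAC element, and AAAAATTTT, the core of the RRPE element, which are known from promoters of ribosome biogenesis genes. GCGATGAG was found in 2 members, MRPL6 and MRPS16 (3.77%), in 47.7% of ribosome biogenesis genes and in 3.93% of 6008 coding genes. AAAAATTTT was found in 4 members (7.55%), in 72.7% of ribosome biogenesis genes and in 6.99% of coding genes. ACCAATNA, the core letters of the Hap complex site, was in 3 members (5.66%), 38.2% of respiratory genes and 5.74% of coding genes. The windows of the 2 members with GCGATGAG are printed because they show the same letters at genes with different values. They are on the minus strand of R64 at VIII:393234-393533 and XVI:529301-529600, with GCGATGAG and AAAAATTTT in capitals. The matches start 176 bases before the start codon in MRPL6, and 216 and 166 bases before it in MRPS16.
MRPL6: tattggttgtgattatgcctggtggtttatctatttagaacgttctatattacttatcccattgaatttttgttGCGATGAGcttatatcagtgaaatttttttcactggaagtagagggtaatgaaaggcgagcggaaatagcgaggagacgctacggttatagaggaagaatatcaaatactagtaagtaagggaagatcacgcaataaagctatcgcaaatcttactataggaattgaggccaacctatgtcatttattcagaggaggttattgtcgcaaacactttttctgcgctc
MRPS16: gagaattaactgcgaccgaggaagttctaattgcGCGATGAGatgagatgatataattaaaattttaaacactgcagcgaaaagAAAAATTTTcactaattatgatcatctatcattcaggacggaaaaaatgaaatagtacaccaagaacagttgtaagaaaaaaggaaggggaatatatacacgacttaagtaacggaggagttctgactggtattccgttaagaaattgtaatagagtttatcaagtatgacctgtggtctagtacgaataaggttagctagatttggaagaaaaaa

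Both windows are shared with a ribosome biogenesis gene read in the other direction. Of the 53 members, 23 have a divergent neighbour of any kind, with at most 600 bases between the start codons. The share of all coding genes with such a neighbour was not counted. The neighbour of MRPL6 is IMP3 (YHR148W, VIII:393534-394085, plus strand), a protein of the small subunit processome, 250 bases away. IMP3 stood at 9.94, 18.5 and 21.98 RPKM (lowest, median, highest) in SynH, 7.68, 24.9 and 47.9 RPKM in SynH -HTs and 30.3, 37.9 and 50.7 RPKM in YPD. All 12 SynH libraries lay below all 12 YPD libraries, and its complete hydrolysate response was -1.20 (adjusted p = 0.000719), beside -0.72 for MRPL6. Its toxin and base medium responses of -0.55 (adjusted p = 0.131) and -0.65 (adjusted p = 0.0523) did not pass.

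The neighbour of MRPS16, the bS16 protein, is RRP12 (YPL012W), a ribosome export factor, 372 bases away. RRP12 changed by -1.29 in the complete hydrolysate response, and MRPS16 by 0.03 ± 0.26 (adjusted p = 0.94), so the letters GCGATGAG went with a fall in 1 of these 2 members. MRPS16 stood at 5.69, 17.2 and 24.9 RPKM in SynH, 3.36, 12.7 and 31.7 RPKM in SynH -HTs and 6.89, 14.3 and 27.7 RPKM in YPD, and its libraries overlapped across all media. With 2 members this is a description of single genes.

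**Figure D5:**
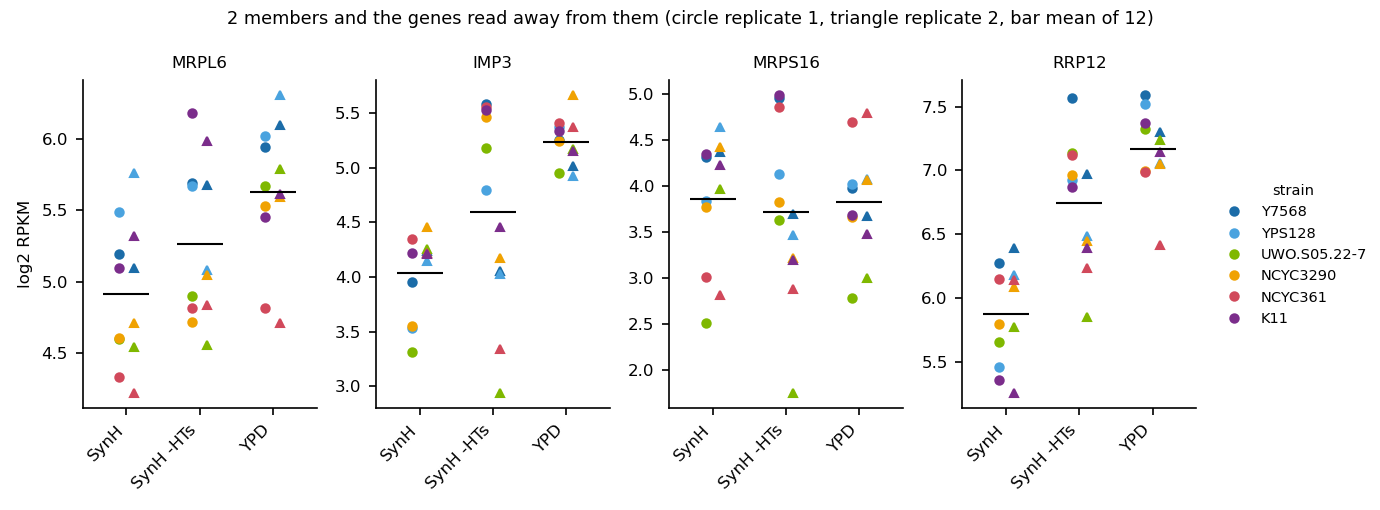
Log2 RPKM of MRPL6 and MRPS16 and of IMP3 and RRP12, the genes read away from them, in each of the 36 libraries by medium, coloured by strain, with bars at the mean of 12 libraries. The mean of MRPL6 is lowest in SynH and highest in YPD as it is for IMP3 and RRP12, while that of MRPS16 is lowest in SynH -HTs. Libraries of both members overlap across all 3 media.

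Across the 18 means of strain and medium, the members otherwise moved together. The Pearson r of a member with the mean of the other 52 had a median of 0.90, as a description over means that share strains and libraries. It was highest for MRPL15 (mL57) and MRPL49 (bL21) at 0.97 and for MRPL35 (mL38) at 0.96. MRPL15 stood at 6.58, 16.2 and 26.8 RPKM in SynH, 3.95, 16.5 and 54.1 RPKM in SynH -HTs and 13.3, 21.98 and 31.2 RPKM in YPD, with its widest range in SynH -HTs. It was lowest for MRPL6 at 0.67, MRPS16 at 0.70 and MRP20 at 0.74. MRPL6 and MRPS16, at the low end, are the 2 members with GCGATGAG in the promoter window, a pairing noticed after the values were seen and not tested.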

How the data were processed

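RNA sequencing values were analysed for 36 libraries of 6 isolates in 3 media. The authors deposited log2 RPKM per feature, and the values show that 1 read was added before the log2. Reads in matched genes were recovered from the values with RefSeq coding lengths of build R64: 1908 of 1908 member values and 99.83% of the values of all matched features came out whole within 0.05 reads. Trimmomatic 0.30, Bowtie2 and HTSeq 0.6.0 were used, per the submitters' processing notes. The labels' protocols give hot phenol extraction, removal of ribosomal RNA and a stranded total RNA kit. Build and strand setting of the counting were not given in the sources used here. Members that overlap another annotated gene (MRP4, MRPL19 and MRPL51) are therefore uncertain. The table has 6 rows that name no gene, which were left out. NCYC361 libraries titled SynHv were taken as SynH from their medium label.

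Comparisons used limma (version 3.58.1, under R 4.3.3), fitted to the deposited log2 values without rescaling, with a prior variance that follows intensity, 18 group means, a filter at a mean of 1 RPKM, and Benjamini-Hochberg adjustment over 5927 features at a threshold of 0.05. Changes are on the scale that includes the added read, which understates low genes, and depth sets only the counting part of the error because reads carry no molecular identifiers. The procedure was tested on simulated data with noise drawn independently for each library. That setting cannot show how the averaged tests behave where same-numbered SynH -HTs libraries share deviations. Tests on counts were planned in case the values were counts and were not run, because the values are log2.

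Named in full are the members past the threshold in each response, up to 6 per direction, the 5 with the smallest adjusted p in each F test, the 5 highest and 5 lowest in level, the largest change past the threshold per strain and direction, and the 3 most and 3 least like the mean of the others; PUF3, HAP4, TUF1, RPO41 and MTF1 are named whatever their values. IMP3, RRP12, MRPL31 and MRPL32 were added after their values were seen. The members and the lists were chosen with earlier results of these data known. Replicate numbers were checked for pairing: deviations from the group mean of same-numbered libraries of 1 strain had a correlation between -0.377 and -0.033 for SynH -HTs and SynH, so numbers were not taken to pair media. Same-numbered SynH -HTs libraries of different strains had 0.426 to 0.717, which the fit does not model; 1 mean over strains per medium and replicate was an alternative.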

Additional observations from a re-analysis of the deposited data

Results flagged for a closer look

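For 9 members the base medium response, SynH -HTs minus YPD, differed among the 6 strains in limma's F test, which is the reason they are listed. The adjusted p was 9.15e-05 for MRP4, 0.000236 for MRPL19, 0.000471 for MRPL6, 0.00178 for MRPS9, 0.00203 for MRPL23, 0.00322 for MRPL3, 0.00506 for MRP1, 0.0124 for MRPS35 and 0.0276 for MRPL13. UWO.S05.22-7 had the lowest value for each of the 9, between -0.37 for MRPL23 and -1.002 for MRPL6. K11 had the highest value for MRP4, MRPL6, MRPS9, MRPL23, MRPL3, MRP1, MRPS35 and MRPL13, between 0.55 for MRPL6 and 1.29 for MRPS35, and NCYC361 and K11 both stood at 1.16 for MRPL19. The 9 include 5 of the members with the highest levels, MRPL23, MRPS9, MRPL3, MRP1 and MRP4. With SynH -HTs replicate 2 alone the test passed for 38 members, where 47.5% of all features passed, and with replicate 1 alone for 27, where 30.2% did.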

How the results depend on the processing

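The counts of members past the threshold are small and moved with most settings, while the direction of the 15 named changes held in all but 1. Median scaling gave 0 higher and 11 lower in the toxin response, 23 and 0 in the base medium response, 15 and 3 in the complete hydrolysate response, and 32 members that differed among strains in the base medium response; the fall of MRPL6 in the base medium response became 0.0068 (adjusted p = 0.969) because the median feature fell by as much. Quantile normalization gave 1 and 10, 22 and 0, 17 and 1, and 29. With strains as the unit the counts were 2 and 1, 0 and 0, and 0 and 2. Of 5927 features, 1297 and 735, 60 and 405, and 322 and 1167 passed there. On means over the strains per medium and replicate number all 6 were 0, where 176 and 14, 65 and 152, and 248 and 226 features passed. Limma voom on recovered reads, chosen after the data were seen, gave 0 and 5, 5 and 2, 3 and 3. Of 5561 features, 1196 and 661, 465 and 2144, and 949 and 1996 passed in it. In NCYC361, split at 25 above and 28 below 0 in the base medium response, both scalings put 51 above 0. In K11 the higher members of the base medium response were 20 with median scaling and 29 with quantile normalization, and in UWO.S05.22-7 the lower ones were 0 and 1. Summed over strains, in alternatives added after the data were seen, as for K11 and UWO.S05.22-7, 1 member passed in the toxin response and 24 in the base medium response; these were 8 and 58 with median scaling and 10 and 67 with quantile normalization, and the toxin total was 2 with a mean of at least 10 RPKM. Leaving out a library, a strain or a replicate number of a medium gave 0 to 42 higher and 1 to 48 lower in the toxin response, 0 to 32 and 0 to 41 in the base medium response, 0 to 5 and 1 to 14 in the complete hydrolysate response, 0 to 1 differing among strains in the toxin response, 1 to 38 in the base medium response and 26 to 53 in mean level, 2 to 50 in K11, 0 to 48 in UWO.S05.22-7, and totals of 0 to 39 and 4 to 115 over strains. No member differed between classes in any of them (0 to 0). Among fits without 1 library, the members' median toxin response was highest without UWO.S05.22-7 in SynH -HTs replicate 1, at 0.08 beside 0.16 for all features. It was lowest without that strain's SynH -HTs replicate 2, at -0.18 beside 0.01. In the base medium response the members' median was -0.27 without UWO.S05.22-7 in SynH -HTs replicate 1, beside -0.38 for all features. Without that strain's SynH -HTs replicate 2 it was -0.02, beside -0.23. In the complete hydrolysate response the members' median was -0.23 without YPS128 in SynH replicate 2, the deepest library, beside -0.26 for all features. Without UWO.S05.22-7 in SynH replicate 1 it was -0.10, beside -0.19. The log2(RPKM + 1) scale and no filter moved none of the counts past the threshold beyond 1.5 times. A replicate block gave 0 and 3, 4 and 2, 1 and 4, and a toxin total of 2 over strains; the numbers do not pair the media (see the correlations of -0.377 to -0.033), so it is not read further. DESeq2 and edgeR fits on counts were not run because the deposited values are log2. The cause of each change with a setting was not tested. The fewest reads of a member in a library were 4.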
